A study of Mus musculus with 2 samples.

Results

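Of the miRNA genes that lie within the mouse Hox clusters, 6 (Mir10a, Mir10b, Mir196a-1, Mir196a-2, Mir196b and Mir615) were followed in embryonic forebrain. They were chosen by position, from the gene annotation, among 1973 miRNA genes in the deposited count tables, and all 6 had a row. The annotation places 1 further miRNA gene in the clusters, Gm44463 of HoxD, which was not analysed here. The tissue was forebrain of B6NCrl mouse embryos at embryonic day 11.5, from animals of both sexes, with no treatment and no mutant allele in the labels. MicroRNA-seq, which reads RNA under 30 bases long, was done on 2 libraries of 1 group, numbered in the labels as biological replicates, replicate 1 from a pool of 109 embryos and replicate 2 from a pool of 88. The labels give both pools the same donor entry and do not say where the forebrain was cut from the midbrain. Sense counts of miRNA genes came to 1281201 for replicate 1 and 1297647 for replicate 2. Levels are counts scaled to these totals (CPM), so that 3 counts, the limit that a count of 0 allows, are 2.34 CPM in replicate 1 and 2.31 CPM in replicate 2. The mature arms of the 6 genes are 22 or 23 bases long, so levels were not divided by length. They are shares of the reads assigned to single genes and not of molecules. Reads that map to several places, 41.7% of the mapped reads in replicate 1 and 39.1% in replicate 2, are left out. Mir92b, known from neural progenitors, was the most abundant of the forebrain and neural progenitor genes listed, by reads assigned to a single gene. It stood at 18428 CPM in replicate 1 against 15730 CPM in replicate 2. This level was no check of forebrain against other parts of the neural tube.

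Hox genes encode transcription factors that give cells their place along the body axis. In the neural tube their use begins in the hindbrain and reaches into the spinal cord, and the forebrain and midbrain are known as Hox-free. Genes at one end of a cluster are used further forward in the body than those at the other end. The miRNA genes embedded between them are known to follow similar domains, with miR-10 reaching the hindbrain and spinal cord and miR-196 staying further back. Which cells their counts in this forebrain tissue came from was not tested. miR-10 is known to repress Hox genes in zebrafish, and miR-196 directs the cleavage of Hoxb8 messenger RNA in mouse.

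The mature sequences are shown because the near identity of the paralogs decides which reads can be assigned to which gene. They are the RefSeq sequences on GRCm38.p6, 5′ to 3′, with the seed (bases 2 to 8, the part that pairs with targets) in capitals. RefSeq entries for a mature form were found for all 6 genes. The chief arms of the miR-10 and miR-196 genes, both arms of miR-615, and the 5p arms of the related miR-99/100 genes, which lie outside the Hox clusters, read as follows.
miR-10a-5p: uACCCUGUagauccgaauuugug
miR-10b-5p: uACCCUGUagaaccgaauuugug
miR-196a-5p: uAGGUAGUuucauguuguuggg
miR-196b-5p: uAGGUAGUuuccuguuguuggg
miR-615-3p: uCCGAGCCugggucucccucuu
miR-615-5p: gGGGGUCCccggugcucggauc
miR-99a-5p: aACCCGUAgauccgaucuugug
miR-99b-5p: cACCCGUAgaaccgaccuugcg
miR-100-5p: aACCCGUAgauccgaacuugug

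miR-10a-5p and miR-10b-5p share their seed with each other and with no other mature miRNA of the table. They are identical at 22 of 23 bases and differ by the substitution U12A from miR-10a to miR-10b, counted from the 5′ end. Their longest run in common with another RefSeq hairpin is 11 bases, so that only base 12 tells a whole read of either from the other. Whether the aligner allowed a mismatch there is not stated. miR-196a-5p and miR-196b-5p also share a seed and differ by A12C alone. This seed, AGGUAGU, stands 1 base further in, at bases 3 to 9, in 9 mature miRNAs. Of these, 7 are named let-7, and the others are miR-98-5p and miR-1961. miR-99a-5p, miR-99b-5p and miR-100-5p have a seed of their own. Neither arm of miR-615 shares its seed with another miRNA of the table. The nearest window of another RefSeq hairpin differs from its 3p arm at 5 bases and from its 5p arm at 7.

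Mir196a-1 and Mir196a-2 give the same mature 5p arm. Their hairpins are shown with that arm in capitals.
Mir196a-1: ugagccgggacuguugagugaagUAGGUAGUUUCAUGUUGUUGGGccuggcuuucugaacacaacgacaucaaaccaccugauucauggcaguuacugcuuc
Mir196a-2: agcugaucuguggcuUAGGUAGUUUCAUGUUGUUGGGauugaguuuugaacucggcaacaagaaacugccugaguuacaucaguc
A read of exactly this arm matches both genes. Reads that map to several places stand in a separate row of the tables, which held 1165381 reads in replicate 1 and 1001079 in replicate 2, and are not in the gene counts. The counts of Mir196a-1 and Mir196a-2 therefore leave out reads of exactly miR-196a-5p, of unknown number. The 3p arms of these genes differ at 5 bases or more from every other hairpin among the 1005 RefSeq hairpins compared. They can be told apart from those, and the rest of the genome was not searched.

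In mm10 coordinates, each hairpin stands among Hox genes of a known place in the cluster. Mir10a (ENSMUSG00000065519) lies on chromosome 11 from 96317165 to 96317274, plus strand, between Hoxb5 and Hoxb4 and 992 bases before Hoxb4, outside any annotated exon or intron. Mir10b (ENSMUSG00000065500) lies on chromosome 2 from 74726070 to 74726137, plus strand, in introns of Hoxd3 and Hoxd4. Mir615 (ENSMUSG00000076010) lies on chromosome 15 from 103014910 to 103015001, plus strand, in an intron of Hoxc5. The 3 miR-196 genes stand nearer the other end of their clusters. Mir196b (ENSMUSG00000065443) lies on chromosome 6 from 52230081 to 52230165, minus strand, within Hoxa9, in an exon of one transcript and an intron of others, 1031 bases from Hoxa10. Mir196a-2 (ENSMUSG00000065488) lies on chromosome 15 from 102973350 to 102973434, plus strand, between Hoxc10 and Hoxc9 and in an intron of a long Hoxc5 transcript. Mir196a-1 (ENSMUSG00000065546) lies on chromosome 11 from 96265164 to 96265265, plus strand, 6191 bases before Hoxb9.

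**Figure D1:**
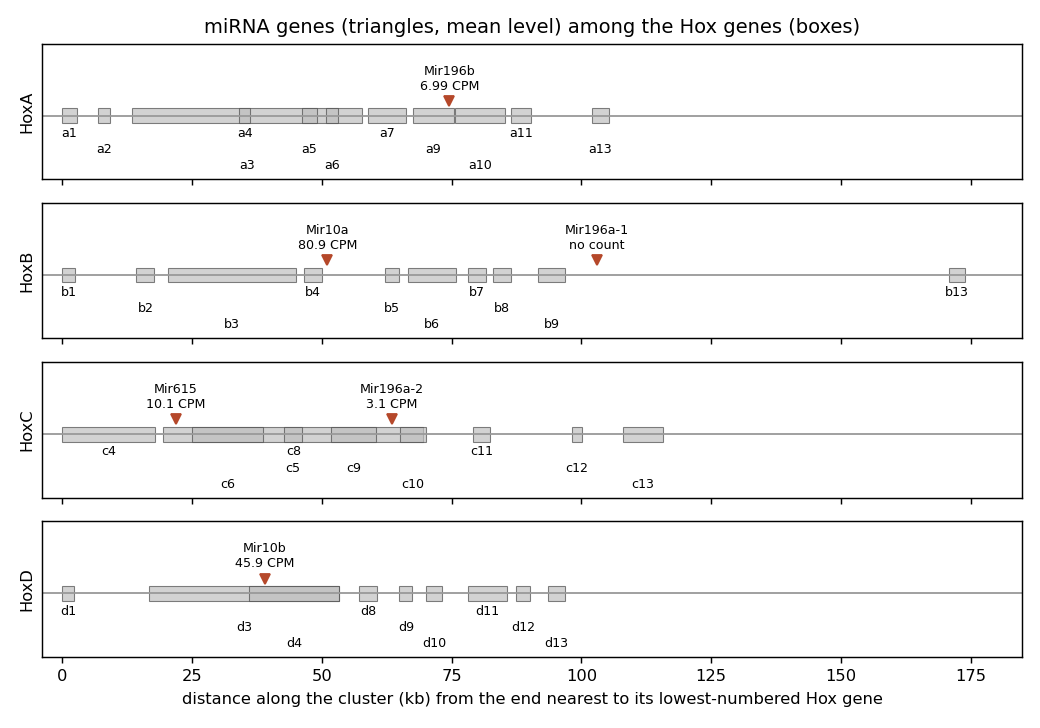
Position of the 6 miRNA genes (triangles, with the mean CPM of 2 libraries) among the Hox genes (grey boxes) of clusters HoxA to HoxD; the x axis is the distance in kb from the end of the cluster nearest to its lowest-numbered Hox gene. Mir10a, Mir10b and Mir615 stand by genes numbered 3 to 5 and the miR-196 genes by genes numbered 9 or 10.

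Mir10a, the miR-10 gene of the HoxB cluster, had 154 counts or 120.2 CPM in replicate 1 and 54 counts or 41.6 CPM in replicate 2. Mir10b, its paralog in the HoxD cluster, had 85 counts or 66.3 CPM in replicate 1 and 33 counts or 25.4 CPM in replicate 2. These were the highest levels of the 6 genes in each library, and for both genes replicate 1 was the higher library. As means they stood at 80.9 ± 55.6 CPM for Mir10a and 45.9 ± 28.9 CPM for Mir10b (SD, n = 2). The exact Poisson intervals of the libraries (95%, counting error only, since PCR copies are not independent molecules) did not overlap for Mir10a, at 102 to 141 CPM in replicate 1 and 31.3 to 54.3 CPM in replicate 2. They did not overlap for Mir10b either, at 53.0 to 82.0 CPM in replicate 1 and 17.5 to 35.7 CPM in replicate 2.

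Mir615, which is coded within Hoxc5, had 15 counts or 11.7 CPM in replicate 1 and 11 counts or 8.48 CPM in replicate 2. Mir196b, the miR-196 gene of the HoxA cluster, had 11 counts or 8.59 CPM in replicate 1 and 7 counts or 5.39 CPM in replicate 2. Mir196a-2 had 4 counts in each library, or 3.12 CPM in replicate 1 and 3.08 CPM in replicate 2. Counting intervals of the libraries overlapped for each of these genes. Mir196a-1 had no count in either library, for which the limit of 3 counts is 2.34 CPM in replicate 1 and 2.31 CPM in replicate 2 for reads assigned to it alone. Its Poisson interval, computed as for the other genes, reached 2.88 CPM in replicate 1 and 2.84 CPM in replicate 2, and neither bound limits miR-196a-5p. On the opposite strand, where no mature miRNA is annotated, the 6 genes held 1 count at Mir10a and 1 at Mir196a-2, both in replicate 1.

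**Figure D2:**
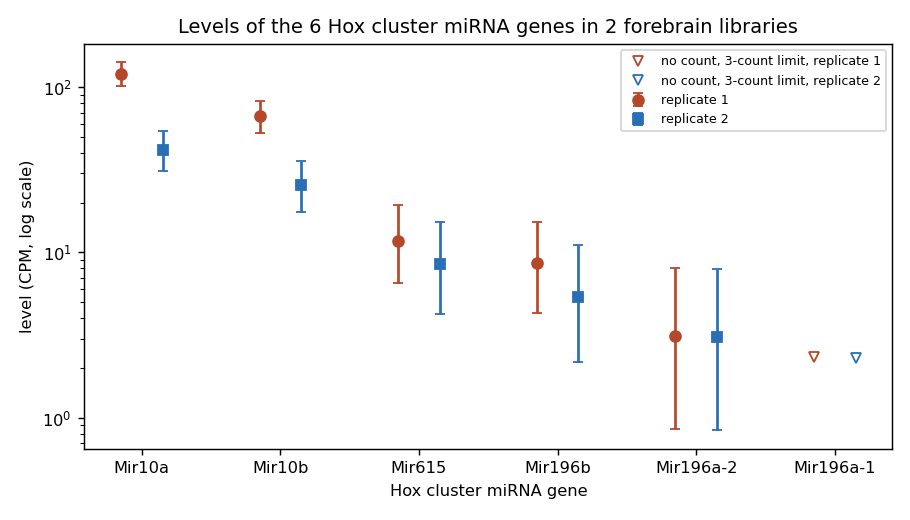
Level of each of the 6 genes (y axis, CPM on a log scale) in replicate 1 (circles) and replicate 2 (squares), with 95% Poisson intervals of the count; open triangles mark the level of 3 counts for Mir196a-1, which had no count. Mir10a and Mir10b are the highest in each library and are higher in replicate 1, whereas the intervals of the other genes overlap between the libraries.

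The order of the 6 genes, Mir10a, Mir10b, Mir615, Mir196b, Mir196a-2 and Mir196a-1, was the same in both libraries. Neighbours in this order were not always apart. The range of Mir10a over the libraries (from 41.6 CPM) overlapped that of Mir10b (up to 66.3 CPM), and the range of Mir615 (from 8.48 CPM) overlapped that of Mir196b (up to 8.59 CPM). Mir10b lay above Mir615 in every library, at 25.4 CPM or more against at most 11.7 CPM. Mir196b lay above Mir196a-2, at 5.39 CPM or more against at most 3.12 CPM, but their counting intervals overlapped in each library. The 3 genes near low-numbered Hox genes thus held the 3 highest levels, with the loss of shared reads from Mir196a-1 and Mir196a-2 unmeasured.

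At 2 CPM or more in both libraries, 5 of the 6 genes were detected, against 21.5% of all miRNA genes with a row. The 6 genes together held 269 counts, 0.0210% of replicate 1 (95% Wilson interval 0.0186 to 0.0237%), and 109 counts, 0.00840% of replicate 2 (0.00696 to 0.0101%). Mir10a and Mir10b supplied most of this sum. They made up 88.8% of it in replicate 1 (84.5 to 92.1%) and 79.8% in replicate 2 (71.3 to 86.3%). Among all rows, Mir10a ranked 229 in replicate 1 and 262 in replicate 2, and Mir10b ranked 251 in replicate 1 and 293 in replicate 2. Mir615 ranked 328 in replicate 1 and 340 in replicate 2, and Mir196b ranked 341 in replicate 1 and 364 in replicate 2.

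The miR-99/100 genes, the relatives of miR-10 outside the Hox clusters, stood near the top of the same libraries. Mir99a, the most abundant of them, stood at 58910 CPM in replicate 1 against 55248 CPM in replicate 2. It exceeded Mir10a by 490-fold in replicate 1 (95% exact interval 418 to 578) and by 1328-fold in replicate 2 (1017 to 1767). Mir99b stood at 35543 CPM in replicate 1 against 31136 CPM in replicate 2. Mir100 stood at 15017 CPM in replicate 1 against 14676 CPM in replicate 2. Mir92b of neural progenitors exceeded Mir10a by 153-fold in replicate 1 (131 to 181) and by 378-fold in replicate 2 (290 to 503).

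The nearest miRNA genes with 50 counts or more outside the Hox clusters, within 2 Mb, all belonged to the miR-148 and miR-152 family. Mir152, 482 kb from the HoxB cluster, stood at 92.1 CPM in replicate 1 against 81.7 CPM in replicate 2. Mir148b, 248 kb from the HoxC cluster, stood at 397 CPM in replicate 1 against 462 CPM in replicate 2. Mir148a, 886 kb from the HoxA cluster, stood at 489 CPM in replicate 1 against 462 CPM in replicate 2. No such gene was found near the HoxD cluster. Mir148a and Mir148b exceeded all miRNA genes inside the clusters in each library. Mir152 lay below Mir10a in replicate 1 and above it in replicate 2.

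**Figure D3:**
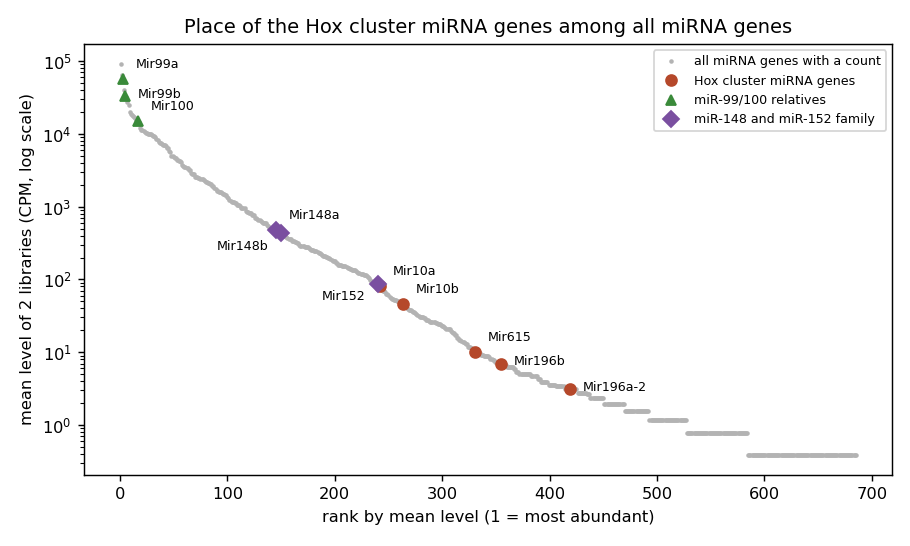
Mean CPM of 2 libraries (y axis, log scale) against rank (x axis) for the miRNA genes with a count, with the Hox cluster miRNA genes (circles), the miR-99/100 genes (triangles) and the miR-148 and miR-152 genes (diamonds) marked. The miR-99/100 genes stand at the top, from 14846.5 to 57079 CPM, and the Hox cluster miRNA genes at 80.9 CPM and below.

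Mir10a and Mir10b were the Hox cluster miRNA genes that differed between the libraries. The log2 ratio of replicate 1 over replicate 2 was 1.52 for Mir10a (95% exact interval 1.07 to 2.01, 2.87-fold) and 1.37 for Mir10b (0.79 to 2.01, 2.58-fold). Both passed a two-sided exact binomial test of the counts given the library totals, adjusted by Benjamini-Hochberg over all 398 genes that had 10 counts or more in total, at adjusted p = 1.03e-11 for Mir10a and adjusted p = 8.13e-06 for Mir10b. A gene was called at an adjusted p under 0.05 and a 2-fold difference, which 2.76% of the tested genes met, 2.26% as higher and 0.503% as lower in replicate 1. This test holds 1 library on each side and covers counting error alone. When edgeR was given a coefficient of variation of 0.2 between libraries, its exact test called neither gene, at adjusted p = 0.290 for Mir10a and adjusted p = 0.590 for Mir10b, and 0 of 398 genes in all, with 13 at an unadjusted p under 0.05. With the coefficient of 0.103 that edgeR estimated from these same libraries, both were called, at adjusted p = 0.000168 for Mir10a and adjusted p = 0.00952 for Mir10b.

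Of the 6 genes, 4 had enough counts to be tested, and those other than Mir10a and Mir10b were not called. Mir615 had a log2 ratio of 0.45 with exact bounds of -0.75 and 1.73 (adjusted p = 0.662, exact binomial test). Mir196b had a log2 ratio of 0.64 with bounds of -0.83 and 2.28 (adjusted p = 0.588, exact binomial test). These intervals take in both 0 and the ratio of Mir10a, so at this depth a difference of that size was neither shown nor excluded. Mir196a-2, with 8 counts in total, and Mir196a-1, with none, were not tested.

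The balance of the miR-10 paralogs was also compared between the libraries. The ratio of Mir10a to Mir10b counts was 1.81 in replicate 1 (95% exact interval 1.38 to 2.39) and 1.64 in replicate 2 (1.04 to 2.61), a difference that did not pass Fisher's exact test (two-sided, p = 0.698). Mir10a exceeded Mir10b in 2 of 2 libraries.

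**Figure D4:**
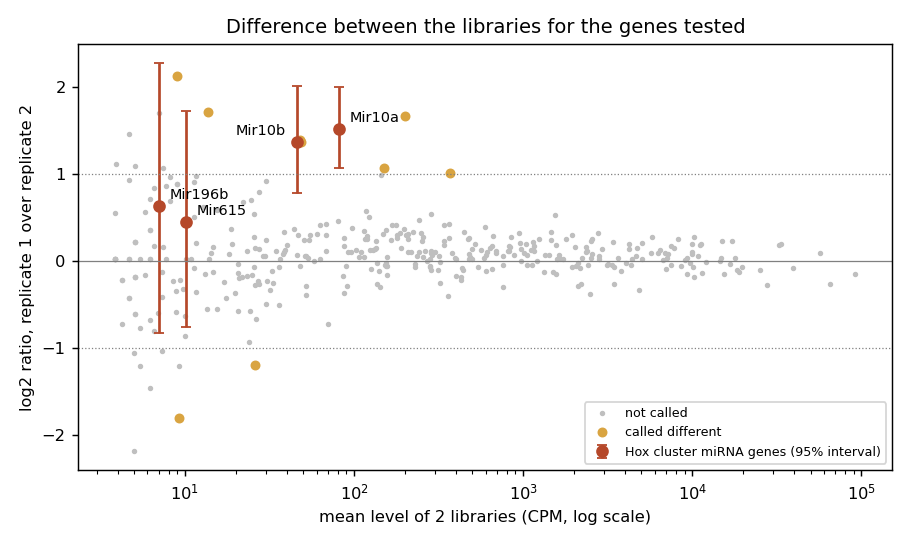
Log2 ratio of replicate 1 over replicate 2 (y axis) against mean CPM (x axis, log scale) for the 398 genes tested; large filled points were called different, and the Hox cluster miRNA genes carry 95% exact intervals of counting error. Mir10a at 1.52 and Mir10b at 1.37 lie above the 2-fold line, and the intervals of Mir615 and Mir196b span 0.

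The related and neighbouring miRNA genes outside the clusters had small ratios between the same libraries, given here as a description. The log2 ratio was 0.09 for Mir99a (0.08 to 0.11), 0.19 for Mir99b (0.17 to 0.21) and 0.03 for Mir100 (0.0042 to 0.06). For Mir152, the neighbour of Mir10a on chromosome 11, it was 0.17 (-0.22 to 0.57). Differences in ratio between the Hox cluster miRNA genes and these genes, or between Mir10a or Mir10b and Mir615 or Mir196b, were not tested.

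Markers of other regions and tissues were read beside this difference, and their part in it was not tested. Mir218-1 and Mir218-2, which encode the motor neuron miRNA miR-218 of hindbrain and spinal cord, were at 15.6 and 24.2 CPM in replicate 1 and at 7.71 and 22.3 CPM in replicate 2. Neither was called, with a log2 ratio of 0.98 (-0.14 to 2.28) for Mir218-1 and 0.11 (-0.66 to 0.90) for Mir218-2. Reads that map to both genes are not in these counts, which therefore give no full level of miR-218. The sum of the striated muscle genes was 253 CPM in replicate 1 and 134 CPM in replicate 2, with 0 of 4 tested genes called. Mir208b, a heart muscle miRNA, made up most of this sum at 191 CPM in replicate 1 and 96.3 CPM in replicate 2. Its log2 ratio of 0.99 (0.67 to 1.31, adjusted p = 1.47e-09, exact binomial test) fell just short of the 2-fold minimum. So did that of Mir208a, another heart muscle miRNA, at 0.92 (0.24 to 1.67, adjusted p = 0.0243, exact binomial test). The intervals of the other tested muscle genes spanned 0, with log2 ratios of 0.09 (-0.91 to 1.11) for Mir499 and 1.10 (-0.65 to 3.34) for Mir206. Of the 8 muscle genes with a row, Mir133b, Mir133a-1, Mir133a-2 and Mir1a-1 had no count in either library. Reads that map to several places are not in these counts, and the muscle sum leaves them out too. For genes numbered as copies, such as Mir133a-1 and Mir133a-2, a count of 0 therefore does not show that the mature miRNA was absent.

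The erythroid sum was 606 CPM in replicate 1 and 371 CPM in replicate 2, with Mir451a, the red blood cell miRNA, called higher in replicate 1 at a log2 ratio of 1.01 (0.82 to 1.21), a call lost with TMM scaling. The other erythroid genes, Mir144 and Mir486, were not called, at -0.06 and -0.50. The liver, gut and pancreas sum was 650 CPM in replicate 1 and 537 CPM in replicate 2, with 1 of 6 tested genes called higher, Mir122 of liver, named after its value was seen, at 1.71 (0.60 to 3.12). Of the forebrain and neural progenitor genes, 0 of 7 tested were called, and their sum was 55589 CPM in replicate 1 and 51629 CPM in replicate 2. That sum leaves out reads that map to several places, and Mir9-1 had no row. Leukocyte, mesenchyme, endothelial and epithelial genes had 0 called, and 1 of 5 tested eye, ear and choroid plexus genes was lower in replicate 1, namely Mir211, also named after its value was seen. The median log2 ratio was 1.00 over the 4 tested Hox cluster miRNA genes and 0.95 over the 4 tested striated muscle genes. It was 0.55 over the 2 hindbrain and spinal motor neuron genes. The medians of all other lists lay from -0.07 to 0.29, and that of all genes tested was 0.07.

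**Figure D5:**
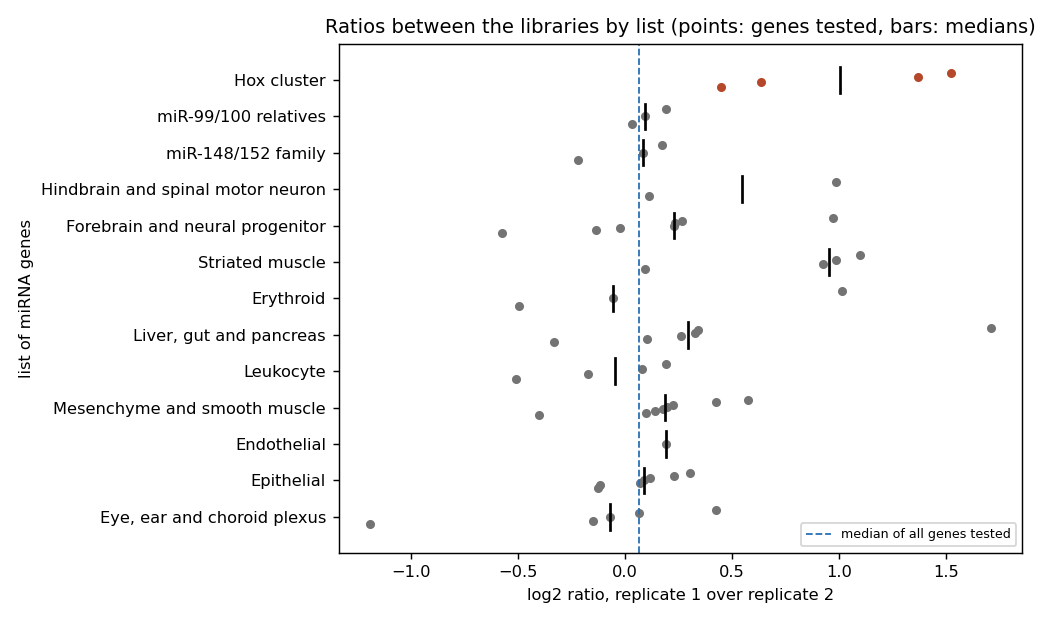
Log2 ratio of replicate 1 over replicate 2 (x axis) of each tested gene, by list (y axis); black bars are list medians and the dashed line is the median of all genes tested, 0.07. The Hox cluster and striated muscle lists have medians of 1.00 and 0.95, and the hindbrain and spinal motor neuron list 0.55. The miR-99/100 and miR-148 and miR-152 genes lie between -0.22 and 0.19.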

How the data were processed

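Raw counts per miRNA gene were deposited by the authors as 1 table per library, in 3 columns (both strands, the strand of the gene, the opposite strand). Per the labels and the deposited text files, reads were aligned to mm10 and annotation M4 was used; neither source names the aligner or the counter. The sense column was used. The first 4 rows of each table name no gene (unmapped, multimapping, no feature, ambiguous); they held 66.4% of the reads of replicate 1 and 60.9% of those of replicate 2 and were left out of totals and tests. Of the 1973 gene identifiers, 1894 were matched without version to GENCODE M21 on GRCm38, the assembly of mm10. Mir10b and Mir196a-2 have another version there than in the tables, so their limits in M4 may differ.

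The members and lists were chosen with earlier results of these data known. With 1 library on each side, no residual degrees of freedom remain for a quasi-likelihood fit, so the exact binomial test was used. For the log2 ratio, 0.5 counts were added. The test was tried on simulated counts that held counting error alone, so that trial does not cover spread between libraries. Genes named were the 6 members, the nearest counted miRNA genes outside each cluster, list members among the 4 most abundant of each of 12 lists, and the 5 genes nearest to Mir10a in log2 ratio. Alternatives were TMM and DESeq2 scaling, edgeR exact tests, other filters, pseudocounts, totals and columns. Whether the pools shared litters is not stated, and p-values of the exact binomial and Fisher tests compare these libraries for counting error only. Scripts ran in Python 3.11.15 with scipy 1.17.1, pandas 2.3.3 and numpy 2.4.6, and in R 4.3.3 with edgeR 4.0.16 and DESeq2 1.42.0.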

Additional observations from a re-analysis of the deposited data

How the results depend on the processing

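Of 168 recomputed values, 130 kept their direction and their side of the threshold or moved by less than the spread between replicates, and of the called values 0 were reversed. The ratio of Mir196a-2, which had too few counts to be tested, changed sign from 0.02 to -0.05 with TMM and to -0.05 with DESeq2 size factors. Mir10a and Mir10b were no longer called when edgeR assumed a coefficient of variation of 0.2, at log2 ratios of 1.53 and 1.38, the construction of that test allowing for spread between libraries. In all other alternatives of these ratios (TMM, DESeq2 size factors, the estimated dispersion, other filters, pseudocounts, unstranded counts) both were called, with adjusted p up to 0.00952 from edgeR. Calls over all genes, 9 higher and 2 lower in replicate 1, became 0 and 0 at a coefficient of 0.2, 0 lower and 7 in all with the estimated dispersion, 1 lower with 50 counts or more in total, and 82 higher, 31 lower and 113 in all with no minimum fold. Of the 6 genes, 3 rather than 5 were detected when 10 counts were asked for in each library, a stricter limit by construction.

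Levels scale with the total chosen. Without the 20 most abundant genes in the total they were 184 CPM for Mir10a, 104.3 for Mir10b, 23.1 for Mir615, 15.96 for Mir196b and 7.12 for Mir196a-2, and the summed share was 0.0334%. Scaled to all reads in the file, Mir10a had 27.3, Mir10b 15.6, Mir615 3.50, Mir196b 2.41 and Mir196a-2 1.09, and the share was 0.00499%. Mir196a-2 had 3.37 CPM in the unstranded column. A single library gave 41.6 to 120.2 CPM for Mir10a, 25.4 to 66.3 for Mir10b, 8.48 to 11.7 for Mir615, 5.39 to 8.59 for Mir196b, 3.08 to 3.12 for Mir196a-2, a share of 0.00840 to 0.0210%, a Mir10a to Mir10b ratio of 1.64 to 1.81, and 5 genes detected. With 1 library left out no ratio between libraries remains, so that test has no such value.

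With TMM the erythroid list had 0 genes called higher. With no minimum fold, genes higher and lower in replicate 1 were 2 and 0 for miR-99/100, 0 and 1 for miR-148 and miR-152, 3 and 1 for forebrain, 2 and 0 for striated muscle, 2 and 0 for liver, gut and pancreas, 5 and 1 for mesenchyme, 1 and 0 for endothelial, 1 and 1 for epithelial and 1 and 2 for eye, ear and choroid plexus. Fewer than 20 counts in a library leave wide intervals for Mir615 and the miR-196 genes.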

Other observations

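The 5 genes whose log2 ratio between the libraries was nearest to that of Mir10a, among 307 others with 50 counts or more in total, were Gm26117, Mir6236, Mir10b, Mir6240 and Gm23935. This likeness rests on 2 libraries. Gm26117 stood at 69.5 CPM in replicate 1 against 26.2 CPM in replicate 2, with a log2 ratio of 1.39. Mir6236 stood at 303 CPM in replicate 1 against 94.8 CPM in replicate 2, with a log2 ratio of 1.67. Mir6240 stood at 70.2 CPM in replicate 1 against 27.0 CPM in replicate 2, with a log2 ratio of 1.37. Gm23935 stood at 205 CPM in replicate 1 against 97.1 CPM in replicate 2, with a log2 ratio of 1.08. Mir10b was thus the third in likeness to Mir10a, 0.15 apart on the log2 scale. Apart from Mir10a and Mir10b, no Hox cluster miRNA gene reached 50 counts, so none of the others could appear among these 5.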
